A study of Mus musculus with 12 samples.

Results

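The heat shock and chaperonin genes are the genes of cytosolic, endoplasmic reticulum and J-domain chaperones and of the cytosolic chaperonin ring. They were taken by symbol, as every gene whose single platform symbol starts with Hsp or Dnaj together with Cct2, Cct3, Cct4, Cct5, Cct6a, Cct7, Cct8 and Tcp1, and without Hspa9, Hspd1, Hspe1 and Dnajc19. This gave 78 of the 18193 genes with a single symbol on the array. The symbol rule also admitted a few genes that are not chaperones, such as Hspg2, which encodes the matrix proteoglycan perlecan. Each gene was read from its brightest probe set over the 12 arrays.

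HSP70 proteins bind stretches of unfolded protein in cycles driven by ATP. J-domain proteins (the Dnaj genes, also called HSP40) bring clients and speed up the ATP step, and HSP110 proteins such as Hsph1 exchange the nucleotide. HSP90 acts later on signalling proteins, small heat shock proteins hold unfolding proteins in solution, and the ring of Tcp1 and Cct subunits folds actin and tubulin, the latter being the protein of the egg's spindle.

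The study injected siRNA into full-grown oocytes of CF1 mice, which were held in milrinone for 20 h and then matured for 18 h to metaphase II. The 4 groups received control siRNA, a pool against Dcp1a, a pool against Dcp2, or both pools mixed, where Dcp2 removes the 5′ cap of mRNA and Dcp1a is its cofactor. Each group had 3 biological replicates of 30 pooled eggs, hybridised to 12 Affymetrix arrays. No allele was changed in any group, each single-siRNA group kept the other gene, and the labels do not say whether the total siRNA dose was matched. Values are relative to the other transcripts of the same array, so lower mRNA per egg and fewer intact eggs in a pool cannot be told apart.

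Dcp1a intensity was 5384.8 to 12427.1 in control arrays and 517.7 to 1235.5 in the 6 arrays with its siRNA, and Dcp2 was 30.4 to 81.8 in control arrays and 4.9 to 5 in the 6 arrays with its siRNA. Of 14 oocyte markers 13 passed the filter on dim probe sets described below. Of 16 cumulus and granulosa cell markers on the array 14 were under the floor on every array, and of 8 markers of other ovarian cells 7 were. The summed intensity of the oocyte markers was 95517.6 to 128944.1 in control arrays, 128808.4 to 144811 after Dcp1a siRNA, 101382.5 to 126118.3 after Dcp2 siRNA and 147478.1 to 150825.7 after both, and that of the cumulus markers was 1620.9 to 2226.6, 2439.5 to 2523.7, 1757.7 to 2677.8 and 1309.1 to 1572.2. The cumulus sum was mostly 1 gene, Nr5a2, which read 10.23 to 11.33 log2 units over the 12 arrays. Kitl, the other cumulus marker past the filter, read 4.30 to 5.58. Over the 12 arrays the Gapdh 3′ control probe set exceeded the 5′ one by 6.60 to 7.96 log2 units. For Actb the 3′ set exceeded the middle one by 3.98 to 5.06. The array's Gapdh 3′ control probe set read 10.26 to 11.48 log2 units in control arrays and 11.69 to 12.25 after both siRNAs. The part of these shifts and of the 3′ excess in the results below was not tested. Arrays of a group correlated at r = 0.938 to 0.992 over the tested probe sets. Control replicate 1 correlated at 0.978 to 0.988 with the Dcp1a siRNA arrays and at most 0.954 with the other controls, and Dcp2 replicate 2 correlated at 0.978 to 0.985 with the Dcp1a siRNA arrays and at most 0.963 within its group.

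Of the 78 genes, 50 passed the filter, set at more than 5 log2 units on 3 or more of the 12 arrays from any group, and were tested among 6996 genes. In all 45 were above that floor on every array and 25 on none. By its brightest probe set, no tested gene had passed through the arrays of 1 group alone. The 28 untested genes lay between 2.29 and 5.66 log2 units on all arrays. They include the testis-rich HSP70 gene Hspa2, which read 3.35 to 4.75, and Hspa1l, Hspb8 and Hspbp1, which stayed at or near the array's minimum of 2.29. The endoplasmic reticulum J-domain gene Dnajb9 read 2.54 to 5.10. The chaperonin subunit Cct6a was also untested, with 5.66 in replicate 3 of the double knockdown and at most 2.85 elsewhere. Hsp90ab1 was not analysed here. By family, the tested genes were 9 of 11 HSP70 and HSP110 genes, 2 of 2 HSP90 genes, 2 of 7 small heat shock protein genes, 4 of 4 Dnaja, 7 of 13 Dnajb and 16 of 27 Dnajc genes, and 7 of 8 chaperonin genes. The other tested genes were 1 of 2 Hspa12 genes and 2 of 4 with another Hsp symbol.

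Heat shock factors bind inverted repeats of the unit NGAAN in the promoters of stress-inducible chaperone genes. The 250 bases before the start of transcription are shown for 4 genes that passed a test below, 3 with such a repeat and 1 without, with the repeat in capitals. Sequences and coordinates are RefSeq's on GRCm38.p6, given 5′ to 3′ on the gene's strand, and for genes with 2 starts the one farther upstream is shown.
Hspb1, chr5:135887669-135887918, plus strand: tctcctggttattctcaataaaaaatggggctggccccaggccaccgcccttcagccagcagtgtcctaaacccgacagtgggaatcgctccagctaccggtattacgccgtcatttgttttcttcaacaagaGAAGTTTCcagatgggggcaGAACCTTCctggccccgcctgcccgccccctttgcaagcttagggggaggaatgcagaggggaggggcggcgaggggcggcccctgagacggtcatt
Hsph1, chr5:149636337-149636586, minus strand: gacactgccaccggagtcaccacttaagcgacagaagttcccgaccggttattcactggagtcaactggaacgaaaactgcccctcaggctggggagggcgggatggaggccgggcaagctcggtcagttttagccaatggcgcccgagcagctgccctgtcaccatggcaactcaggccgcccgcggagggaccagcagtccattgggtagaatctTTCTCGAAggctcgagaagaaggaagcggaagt
Cct5, chr15:31601847-31602096, minus strand: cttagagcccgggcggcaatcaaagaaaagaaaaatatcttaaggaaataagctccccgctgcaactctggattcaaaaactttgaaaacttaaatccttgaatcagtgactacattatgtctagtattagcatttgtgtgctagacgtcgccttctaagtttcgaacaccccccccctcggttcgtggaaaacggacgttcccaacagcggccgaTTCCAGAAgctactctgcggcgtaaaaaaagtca
Tcp1, chr17:12916079-12916328, plus strand: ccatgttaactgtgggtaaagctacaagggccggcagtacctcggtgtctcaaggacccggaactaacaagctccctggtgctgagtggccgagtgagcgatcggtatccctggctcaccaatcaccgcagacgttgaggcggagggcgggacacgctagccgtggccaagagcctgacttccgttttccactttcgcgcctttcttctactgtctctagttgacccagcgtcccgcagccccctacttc
The search used 2 units in either order, GAANNTTC or TTCNNGAA, each of which reads the same on both strands. Hspb1 had 2 matches, first bases 117 and 97 before the start, Hsph1 had 1 at 33 and Cct5 had 1 at 34, and the Tcp1 window had none. Such a match was found in 14 of the 65 members with a promoter sequence (21.5%) and in 3932 of 27025 genes in the table (14.5%), and a run of 3 units was found in 1 member, Dnajb6 (1.54%), and in 139 genes (0.514%). Of the 8 members that passed a test below and have a sequence, 4 had a match, Hspb1, Hsph1, Cct5 and Cct2, beside 12 of the 42 tested members with a sequence (28.6%). In Cct5 and Cct2 it lay before only 1 of their 2 starts, and a gene with more starts has more windows in which to match. A match is only these letters in this window.

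**Figure D1:**
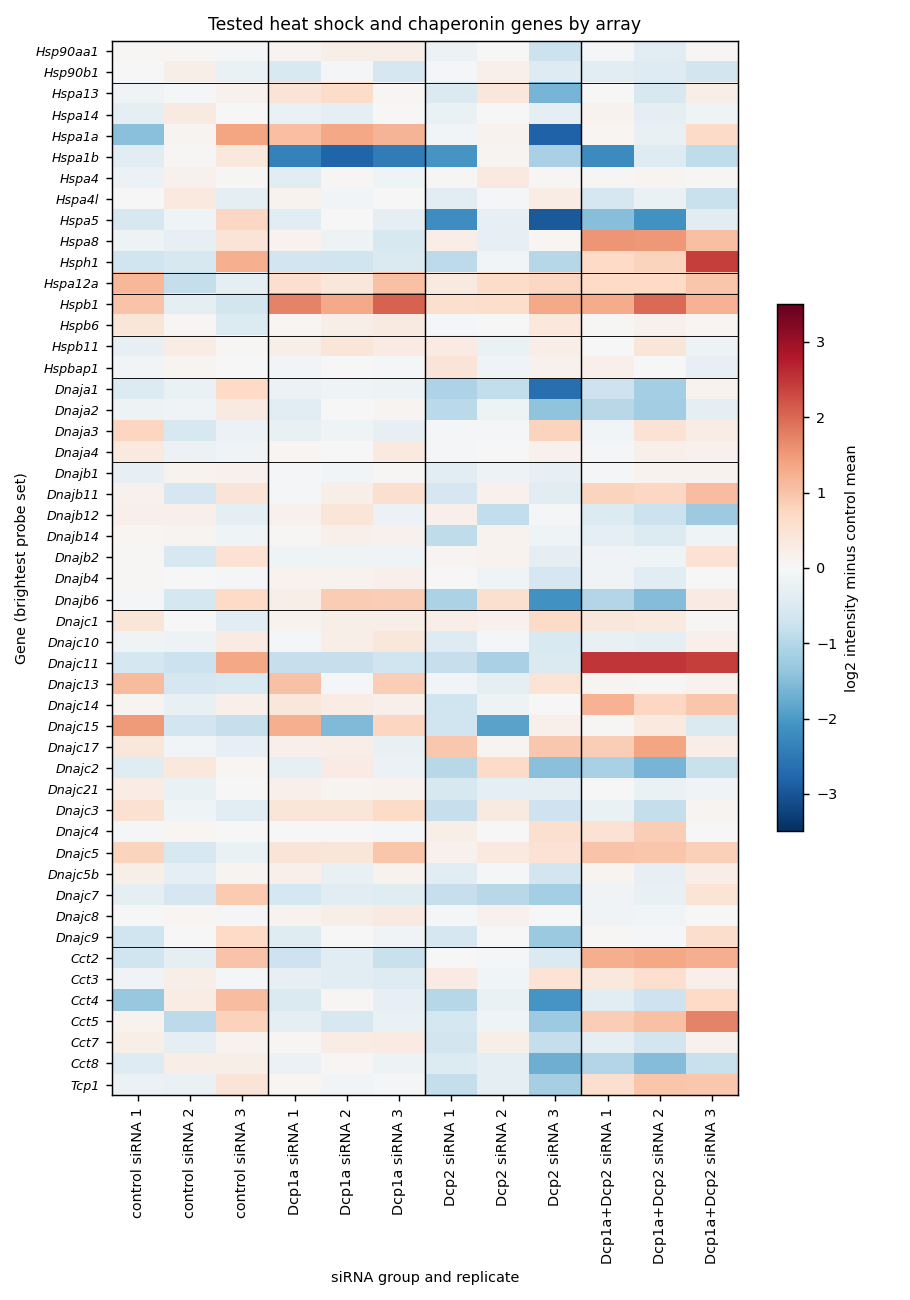
Log2 intensity of each tested gene minus its mean over the control arrays, by array, with families separated by lines. Dnajc11, Hspa8 and Cct2 are above the control mean in all 3 arrays of the double knockdown, and Hspa1b is below it in all 3 Dcp1a siRNA arrays.

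The first question was what each siRNA did alone. In the Dcp1a knockdown 0 of 50 genes were higher and 0 lower than control (limma, Benjamini-Hochberg adjusted p under 0.05 over 11593 probe sets), where 0.0286% of all genes tested were higher and 0.0286% lower. At an unadjusted p under 0.05, 1 gene was higher and 1 lower, beside 215 higher and 128 lower of the 6996 genes tested. The median change of the 50 genes was 0.01 log2 units, and that of all genes tested was 0.10.

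The gene with an unadjusted p under 0.05 on the low side was Hspa1b, a stress-inducible HSP70 gene. Hspa1b read 5.69, 6.11 and 6.44 in the control arrays, 3.72, 3.26 and 3.63 after Dcp1a siRNA, 4.03, 6.18 and 4.95 after Dcp2 siRNA and 3.86, 5.61 and 5.19 after both. All 3 Dcp1a siRNA arrays lay under every control array, and the log2 change was -2.54 ± 0.53 (standard error, n = 3 against 3, limma adjusted p = 0.704). Counted from the floor of 5, the Dcp1a group was at least 2.11-fold lower, since its values were under that floor. Hspa1a, an almost identical neighbour gene, read 4.80, 6.35 and 7.63 in the control arrays, 7.31, 7.61 and 7.46 after Dcp1a siRNA, 6.17, 6.38 and 3.42 after Dcp2 siRNA and 6.33, 6.0 and 6.92 after both. Its Dcp1a siRNA arrays overlapped the control range and its change was 1.20 ± 0.79 (limma adjusted p = 0.853). Signal from the transcripts of these 2 genes may be shared between their probe sets, because their coding sequences are nearly the same.

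On the high side the gene was Hspb1, which encodes the small heat shock protein HSP27. Hspb1 read 9.75, 8.41 and 8.11 in the control arrays, 10.50, 10.08 and 10.82 after Dcp1a siRNA, 9.31, 9.36 and 10.07 after Dcp2 siRNA and 10.05, 10.75 and 9.97 after both. The 3 Dcp1a siRNA arrays lay above every control array, and the change was 1.71 ± 0.41 (limma adjusted p = 0.853). Without control replicate 1, the array that resembled the Dcp1a siRNA arrays, Hspb1, Dnajc5 and Hspa12a passed as higher (2.20, 1.01 and 1.26, limma adjusted p = 0.0151, 0.0407 and 0.0317) and Hspa1b as lower (-2.73, adjusted p = 0.0462), where 331 of 11593 probe sets passed as higher and 41 as lower. Hspa12a, a distant HSP70 relative, is named here after its values were seen. Control replicate 1 was singled out by its likeness to the Dcp1a siRNA arrays, so leaving it out favours differences from them. On all arrays 2 probe sets passed as higher and 4 as lower, and the calls without control replicate 1 do not count as support.

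In the Dcp2 knockdown 0 of 50 genes were higher and 0 lower than control (limma), where 0% of all genes tested were higher and 0.0286% lower. At an unadjusted p under 0.05, 0 genes were higher and 7 lower, beside 248 higher and 486 lower of the 6996 genes tested. The median change was -0.29 against -0.08 over all genes tested, and 34 of the 50 genes had a negative change. The pair with the smallest p was Dnaja1, a cytosolic J-domain partner of HSP70, and Tcp1, the first chaperonin subunit. Dnaja1 read 9.86, 10.09 and 11.02 in the control arrays, 10.13, 10.18 and 10.14 after Dcp1a siRNA, 9.23, 9.46 and 7.69 after Dcp2 siRNA and 9.59, 9.13 and 10.44 after both. The 3 Dcp2 siRNA arrays lay under the control arrays, replicate 3 farthest, and the change was -1.53 ± 0.48 (limma adjusted p = 0.425). Tcp1 changed by -0.78 ± 0.25 (limma adjusted p = 0.425), again without overlap between the groups.

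The other genes on that side were Hspa5, Dnaja2, Dnajc7, Dnajc21 and Cct8, each with a limma adjusted p of 0.425. Hspa5, the endoplasmic reticulum HSP70 also called BiP, read 10.63, 11.04 and 11.90 in the control arrays, 10.78, 11.20 and 10.85 after Dcp1a siRNA, 9.01, 10.89 and 8.25 after Dcp2 siRNA and 9.70, 9.08 and 10.81 after both. Its Dcp2 siRNA replicates 1 and 3 were under every control array while replicate 2 was inside the control range, and the change was -1.81 ± 0.63. The other tested probe sets of Hspa5 overlapped control after Dcp2 siRNA. One read 8.49, 8.04 and 8.99 in the control arrays and 8.16, 8.53 and 7.97 after Dcp2 siRNA. The other read 7.37, 7.38 and 7.90 in the control arrays and 8.10, 7.99 and 7.29 after Dcp2 siRNA. The changes of Dnaja2, a cytosolic J-domain gene, Dnajc7, a partner of both HSP70 and HSP90, Dnajc21, which acts in ribosome assembly, and Cct8 were -0.85 ± 0.33, -0.98 ± 0.35, -0.41 ± 0.17 and -0.83 ± 0.36. With control replicate 1 and Dcp2 replicate 2 both left out, the arrays that correlated best with the Dcp1a siRNA arrays, 9 genes passed as lower and 3 as higher, where 1401 of 11593 probe sets passed as lower and 1018 as higher. The 9 were Hspa5, Hspa1b, Dnaja1, Dnaja2, Dnajc2, Dnajc9, Cct4, Cct8 and Tcp1, and the 3 were Hspb1, Hspa12a and Dnajc17, the last of them also named after its values were seen. Without that pair of arrays the change of Hspa5 was -2.84 (limma adjusted p = 0.0160), that of Dnaja1 -2.10 (adjusted p = 0.0330) and that of Tcp1 -1.11 (adjusted p = 0.0252). Both arrays were picked by their correlations in these data, and they correlated at r = 0.973 with each other. Leaving them out favours differences between control and Dcp2 siRNA, so these calls do not count as support. On all arrays 0 probe sets passed as higher and 2 as lower.

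In the double knockdown 5 of 50 genes (10%) were higher than control and 0 were lower (limma adjusted p under 0.05), where 6.78% of all genes tested were higher and 1.64% lower. The 5 were the J-domain genes Dnajc11 and Dnajc14, the constitutive HSP70 gene Hspa8, the chaperonin gene Cct2 and the small heat shock protein gene Hspb1. At an unadjusted p under 0.05, 11 genes were higher and 7 lower, beside 1171 higher and 794 lower of the 6996 genes tested. The median change of 0.04 lay beside 0.00 over all genes tested. The count of 5 was 2 without control replicate 2 or without replicate 1 of the double knockdown, and 3 without any 1 of the 3 Dcp1a siRNA arrays, Dcp2 replicate 1 or replicates 2 or 3 of the double knockdown. It was 0 by limma when all probe sets were tested without the filter on dim values, and 0 with the variance taken from the compared arrays alone. These settings leave the fitted changes as they are, so the signs of the 5 could not differ. The count was 8, with Hspa5, Dnaja2, Dnajc2 and Cct8 lower, without control replicate 1 and Dcp2 replicate 2 together, a pair picked by correlations in these data, where 2059 probe sets were higher and 1156 lower. Over the whole array 768 probe sets (6.62%) were higher and 243 (2.1%) lower, so 76.0% of those called were higher, against 65.8% after median centring and 66.4% after quantile normalization of the same values.

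**Figure D2:**
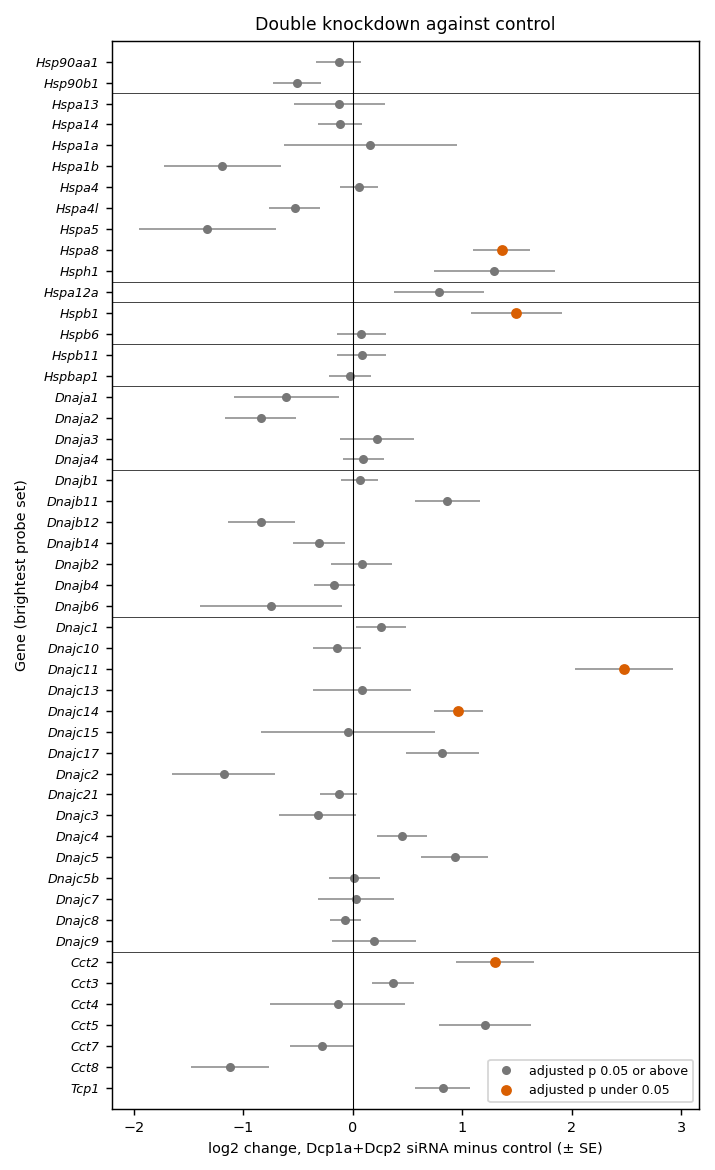
Log2 change of each tested gene in the double knockdown against control, with the standard error of the fit as bars and genes past the threshold in orange. Dnajc11 stands farthest to the right at 2.47, and Hspa5 and Hspb1 lie on opposite sides of 0 at -1.33 and 1.49.

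Dnajc11 encodes a J-domain protein of the mitochondrial membranes. It read 5.98, 5.86 and 7.97 in the control arrays, 5.78, 5.81 and 5.91 after Dcp1a siRNA, 5.78, 5.48 and 6.10 after Dcp2 siRNA and 9.11, 9.11 and 9.01 after both. The 3 double knockdown arrays lay between 9.01 and 9.11, above all 9 others, and control replicate 3 was the highest of those 9. Dnajc11 rose 5.56-fold against control (log2 change 2.47 ± 0.45, limma adjusted p = 0.00678), 9.48-fold against the Dcp1a knockdown (3.24 ± 0.45, adjusted p = 0.00101) and 9.78-fold against the Dcp2 knockdown (3.29 ± 0.45, adjusted p = 0.00125). It passed against control with each of the 12 arrays left out, at adjusted p = 1.11e-05 to 0.0327, and missed the threshold with the variance taken from the compared arrays alone (adjusted p = 0.0839). With no filter on dim probe sets the adjusted p was 0.0655. A pair of dimmer probe sets of the gene changed by 0.77 ± 0.22 (adjusted p = 0.0516) and 0.62 ± 0.27 (adjusted p = 0.163). The first of that pair read 5.89, 5.71 and 6.19 after Dcp2 siRNA and 6.30, 6.42 and 6.65 after both. The second read 5.53, 5.17 and 6.04 after Dcp2 siRNA and 5.99, 5.89 and 5.21 after both, with overlap. Averaged over the gene's probe sets the changes were 1.29 against control, 1.5 against the Dcp1a knockdown and 1.31 against the Dcp2 knockdown, all still past the threshold (limma adjusted p = 0.00295, 0.000815 and 0.00219). These averages include the brightest probe set, so they are no separate support.

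Hspa8 encodes HSC70, the constitutive cytosolic HSP70 that also uncoats clathrin vesicles. It read 12.45, 12.33 and 13.08 in the control arrays, 12.73, 12.44 and 12.07 after Dcp1a siRNA, 12.86, 12.33 and 12.69 after Dcp2 siRNA and 14.15, 14.12 and 13.66 after both. All 3 double knockdown arrays lay above the other 9. Hspa8 rose 2.57-fold against control (1.36 ± 0.26, limma adjusted p = 0.00896), 2.96-fold against the Dcp1a knockdown (1.57 ± 0.26, adjusted p = 0.00297) and 2.56-fold against the Dcp2 knockdown (1.35 ± 0.26, adjusted p = 0.00926). It passed against control with each of the 12 arrays left out, at adjusted p = 0.00301 to 0.046, and missed with the variance from the compared arrays alone (adjusted p = 0.0654). The other tested probe sets of Hspa8 changed by 1.42 ± 0.38 (adjusted p = 0.0431) and 1.51 ± 0.43 (adjusted p = 0.0528).

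Dnajc14 encodes a J-domain protein of the endoplasmic reticulum membrane that takes part in receptor export. It read 8.77, 8.40 and 8.83 in the control arrays, 9.06, 8.94 and 8.84 after Dcp1a siRNA, 7.96, 8.49 and 8.66 after Dcp2 siRNA and 9.87, 9.38 and 9.64 after both. The double knockdown arrays lay above the other 9 on this narrow scale. Dnajc14 rose 1.95-fold against control (0.97 ± 0.22, limma adjusted p = 0.0209) and 2.39-fold against the Dcp2 knockdown (1.26 ± 0.22, adjusted p = 0.00532), and its change against the Dcp1a knockdown was 0.68 ± 0.22 (adjusted p = 0.0677). Leaving out control replicate 2 or replicate 1 of the double knockdown ended the call against control, where adjusted p ran from 0.015 to 0.092 over the 12 omissions. A second probe set was higher as well, by 1.12 ± 0.30 (adjusted p = 0.0416).

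Hspb1 was higher in the double knockdown than in control by 1.49 ± 0.41, or 2.82-fold (limma adjusted p = 0.0478). Its 3 double knockdown values, given above, lay above all control arrays but among the Dcp1a siRNA arrays, and the change from the Dcp1a knockdown was -0.21 ± 0.41 (adjusted p = 0.757). The call against control held with control replicate 1, Dcp2 replicate 2 or Dcp2 replicate 3 left out and was lost with any other single array left out, at adjusted p between 0.00386 and 0.188. Control replicate 1 was the highest control array for this gene, at 9.75.

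**Figure D3:**
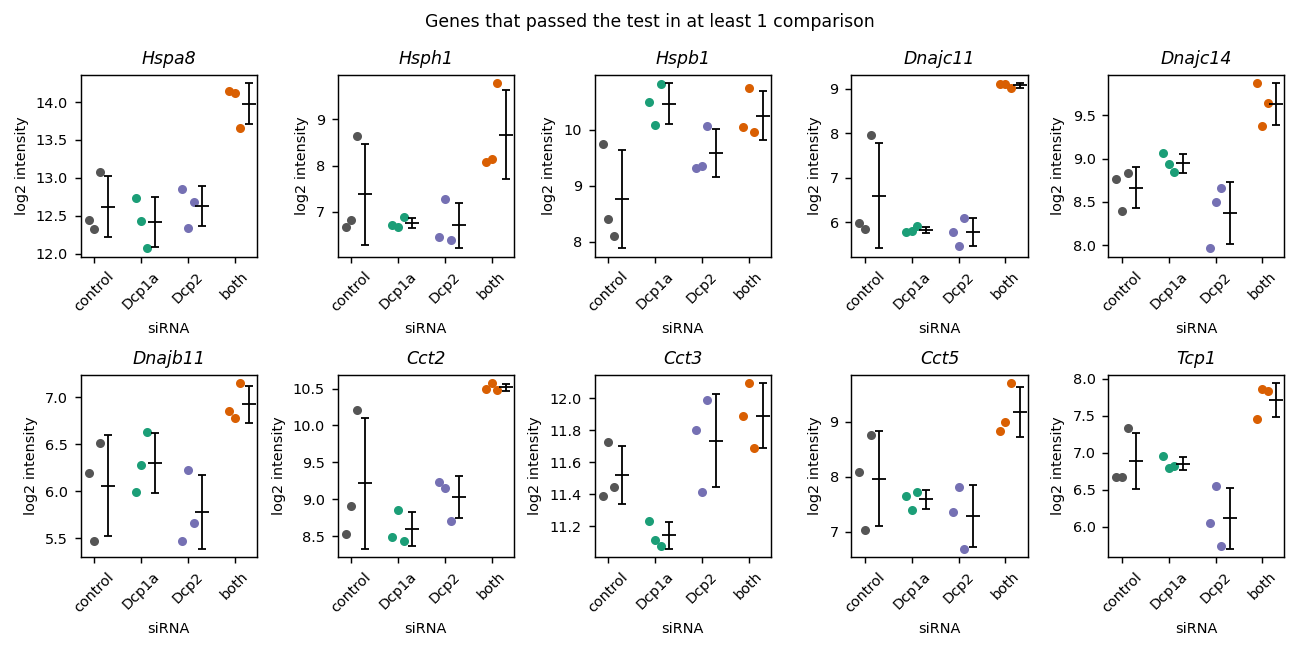
Log2 intensity by array for the 10 genes that passed in at least 1 comparison, with the mean and SD of each group (n = 3) beside the points. The 3 arrays with both siRNAs lie between 9.01 and 9.11 for Dnajc11 and between 13.66 and 14.15 for Hspa8, above all others.

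The 7 tested chaperonin genes had changes of both signs in the double knockdown against control, 4 positive and 3 negative. Cct2 was the only one past the threshold against control, 3 had an unadjusted p under 0.05 on the high side and 1 on the low side, where 1171 and 794 of all 6996 genes tested did, and the median change was 0.37. Cct2 read 8.52, 8.91 and 10.22 in the control arrays, 8.49, 8.86 and 8.43 after Dcp1a siRNA, 9.23, 9.15 and 8.71 after Dcp2 siRNA and 10.49, 10.57 and 10.48 after both. The double knockdown arrays spanned 10.48 to 10.57, and control replicate 3 lay just under them while the other 8 arrays were at 9.23 or lower. Cct2 rose 2.46-fold against control (1.30 ± 0.36, limma adjusted p = 0.0478), and this call was lost with any single array left out except control replicate 3 (adjusted p = 0.000607 to 0.181 over the 12 omissions). Against the Dcp1a knockdown it rose 3.79-fold (1.92 ± 0.36, adjusted p = 0.00573) and held with each array left out. The other tested probe sets of Cct2 changed by 1.29 ± 0.34 (adjusted p = 0.0385) and 1.51 ± 0.66 (adjusted p = 0.170).

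Tcp1, whose single probe set stands for the ring's first subunit, read 6.68, 6.67 and 7.33 in the control arrays, 6.95, 6.79 and 6.82 after Dcp1a siRNA, 6.05, 6.55 and 5.74 after Dcp2 siRNA and 7.45, 7.86 and 7.83 after both. The double knockdown was above the other 9 arrays and the Dcp2 knockdown below the other 9. Against control the change was 0.82 ± 0.25 (limma adjusted p = 0.0671), against the Dcp1a knockdown 0.86 ± 0.25 (adjusted p = 0.0468) and against the Dcp2 knockdown 1.60 ± 0.25, a 3.03-fold rise (adjusted p = 0.00283). The call against the Dcp2 knockdown held with each array left out. The one against the Dcp1a knockdown held only without control replicate 1, control replicate 3, Dcp2 replicate 2 or Dcp2 replicate 3 (adjusted p = 0.0256 to 0.163).

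Cct5 read 8.09, 7.04 and 8.76 in the control arrays, 7.65, 7.39 and 7.72 after Dcp1a siRNA, 7.36, 7.81 and 6.69 after Dcp2 siRNA and 8.82, 9.0 and 9.70 after both. Its double knockdown arrays were again the highest, with control replicate 3 next at 8.76. Cct5 changed by 1.21 ± 0.42 against control (limma adjusted p = 0.0991) and rose 3.0-fold against the Dcp1a knockdown (1.59 ± 0.42, adjusted p = 0.0329) and 3.70-fold against the Dcp2 knockdown (1.89 ± 0.42, adjusted p = 0.0207). The former call was lost without any 1 of the arrays of those 2 groups (adjusted p = 0.0126 to 0.114), and the latter without Dcp2 replicate 1 or 3 or replicate 2 or 3 of the double knockdown (adjusted p = 0.00635 to 0.0833).

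Cct3 differed by less. It read 11.39, 11.73 and 11.44 in the control arrays, 11.23, 11.12 and 11.08 after Dcp1a siRNA, 11.80, 11.42 and 11.99 after Dcp2 siRNA and 11.89, 12.09 and 11.69 after both, so that the Dcp1a siRNA arrays were the lowest and the other groups overlapped. Cct3 was 1.68-fold higher in the double than in the Dcp1a knockdown (0.75 ± 0.19, limma adjusted p = 0.0295), a call that ended without any 1 of the Dcp1a siRNA arrays or replicates 1 or 2 of the double knockdown (adjusted p = 0.017 to 0.125). Averaged over the gene's probe sets that change was 0.41 (adjusted p = 0.0577). Its change against control was 0.37 ± 0.19 (adjusted p = 0.228).

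Cct8 lay on the other side of control. It read 9.18, 9.86 and 9.83 in the control arrays, 9.42, 9.67 and 9.44 after Dcp1a siRNA, 9.14, 9.31 and 7.91 after Dcp2 siRNA and 8.59, 8.09 and 8.83 after both, and all 3 double knockdown arrays were under every control array. The change was -1.12 ± 0.36 (limma adjusted p = 0.0773). It passed as lower after median centring and after quantile normalization, without control replicate 1 and without Dcp2 replicate 3. Cct4 changed by -0.14 ± 0.62 (adjusted p = 0.899) and Cct7 by -0.28 ± 0.30 (adjusted p = 0.537), with control arrays of Cct4 spread from 8.23 to 10.64.

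**Figure D4:**
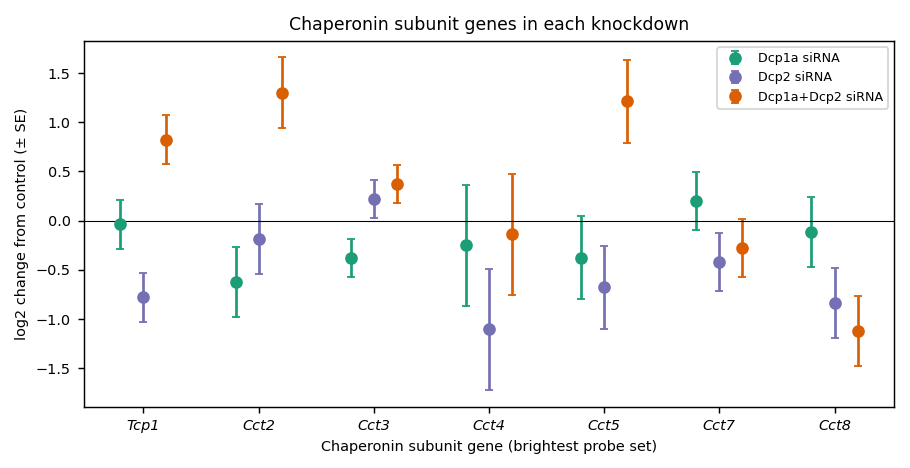
Log2 change of the 7 tested chaperonin genes against control after Dcp1a siRNA, Dcp2 siRNA and both, with standard errors of the fit. After both siRNAs Cct2, Cct5 and Tcp1 lie at 1.30, 1.21 and 0.82 and Cct8 at -1.12.

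The next comparisons asked what the second siRNA added. Against the Dcp1a knockdown 7 of 50 genes (14%) were higher in the double knockdown and 0 lower (limma), where 8.18% of all genes tested were higher and 3.3% lower. These were Dnajc11, Hspa8, Cct2, Cct3, Cct5, Tcp1 and Hsph1, so 4 of the 7 tested chaperonin genes were among them. The count was 3 without any 1 Dcp1a siRNA array or without replicate 1 or 2 of the double knockdown. Against the Dcp2 knockdown 7 genes (14%) were higher and 0 lower (limma), where 5.87% of all genes tested were higher and 0.272% lower. These were Dnajc11, Hspa8, Dnajc14, Cct2, Cct5, Tcp1 and Dnajb11. That count was 4 without Dcp2 replicate 1 or 3 or without replicate 2 or 3 of the double knockdown. Both comparisons use the same 3 double knockdown arrays. With no filter on dim probe sets the calls that remained were Dnajc11 and Hspa8 against the Dcp1a knockdown and Dnajc11, Dnajc14 and Tcp1 against the Dcp2 knockdown (limma).

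Hsph1 encodes HSP110, the nucleotide exchange factor of cytosolic HSP70. It read 6.68, 6.82 and 8.63 in the control arrays, 6.72, 6.67 and 6.88 after Dcp1a siRNA, 6.46, 7.28 and 6.38 after Dcp2 siRNA and 8.08, 8.14 and 9.79 after both. Control replicate 3 lay inside the range of the double knockdown and the other 8 arrays below it. Hsph1 rose 3.77-fold against the Dcp1a knockdown (1.91 ± 0.55, limma adjusted p = 0.0465), while the changes against the Dcp2 knockdown and control were 1.96 ± 0.55 (adjusted p = 0.0655) and 1.29 ± 0.55 (adjusted p = 0.162). The call held only without control replicate 1, control replicate 3 or Dcp2 replicate 2 (adjusted p = 0.015 to 0.133). The gene's second tested probe set had a change against control of the other sign, -0.42 ± 0.48 (adjusted p = 0.573). Averaged over both probe sets, the change against the Dcp1a knockdown was 0.74 and did not pass (adjusted p = 0.218).

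Dnajb11 encodes an endoplasmic reticulum J-domain protein that partners BiP. It read 6.20, 5.47 and 6.51 in the control arrays, 6.0, 6.28 and 6.63 after Dcp1a siRNA, 5.47, 6.22 and 5.66 after Dcp2 siRNA and 6.85, 6.78 and 7.15 after both, with the double knockdown above the other 9 arrays. It rose 2.21-fold against the Dcp2 knockdown (1.14 ± 0.30, limma adjusted p = 0.0437), a call kept only without control replicate 2, control replicate 3 or Dcp2 replicate 2 (adjusted p = 0.0196 to 0.156). Against control the change was 0.87 ± 0.30 (adjusted p = 0.0956). Against the Dcp2 knockdown Cct2 rose 2.80-fold (1.49 ± 0.36, adjusted p = 0.031), which held only without a control array or Dcp1a replicate 2 (adjusted p = 0.00098 to 0.115).

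The departure from additivity is what remains of the double knockdown's change once the changes after Dcp1a siRNA and after Dcp2 siRNA are subtracted. It passed as positive for 4 of 50 genes (8%) and as negative for 0 (limma), where 3.7% of all genes tested were positive and 0.0572% negative. It was 4.06 ± 0.63 for Dnajc11 (limma adjusted p = 0.00553), which held with each array left out. It was 1.52 when the gene's probe sets were averaged (limma adjusted p = 0.0122), an average that includes the brightest one. The call ended with no filter on dim probe sets (adjusted p = 0.0666). For Tcp1 it was 1.64 ± 0.35 (adjusted p = 0.0257), for Hspa8 1.56 ± 0.37 (adjusted p = 0.0397) and for Cct2 2.11 ± 0.51 (adjusted p = 0.0438). Their calls were lost in 7, 9 and 9 of the 12 omissions. Tcp1 kept it without any 1 control array, Dcp2 replicate 2 or replicate 1 of the double knockdown (adjusted p = 0.0167 to 0.0784), Hspa8 without control replicates 1 or 2 or replicate 3 of the double knockdown (0.0346 to 0.116), and Cct2 without any 1 control array (0.013 to 0.124). The count was 1 without any 1 Dcp1a siRNA array, Dcp2 replicate 1 or 3 or replicate 2 of the double knockdown, and 2 without replicate 1 or 3 of the double knockdown. The departures of Hsph1 and Cct5 were 2.58 ± 0.78 (adjusted p = 0.124) and 2.26 ± 0.60 (adjusted p = 0.066).

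Control replicate 3 was the highest control array for 8 of the 10 genes that passed in any comparison, the exceptions being Hspb1 and Cct3. It was highest for 42% of the 50 tested genes, 58.2% of the 474 genes higher in the double knockdown than in control and 36.1% of all genes tested. Without that array the changes against control were 3.16 for Dnajc11 (limma adjusted p = 1.11e-05), 1.80 for Cct2 (adjusted p = 0.000607) and 1.59 for Hspa8 (adjusted p = 0.00301), and 7 genes passed as higher, Cct5, Tcp1, Hsph1 and Dnajc14 with these 3, where 882 of 11593 probe sets passed as higher and 221 as lower. Leaving out the highest control array of a gene raises its change against control by construction. The departures from additivity fell without it, to 3.38 for Dnajc11, 1.61 for Cct2, 1.42 for Tcp1 and 1.33 for Hspa8, the last no longer past the threshold.

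Among the remaining HSP70 genes the double knockdown differed from control by 0.06 ± 0.17 for Hspa4 and -0.53 ± 0.23 for Hspa4l, both of the HSP110 branch, by -0.12 ± 0.42 for Hspa13, by -0.12 ± 0.20 for Hspa14, which works at the ribosome, and by 0.16 ± 0.79 for Hspa1a. Their limma adjusted p ran from 0.168 to 0.910. A dimmer Hspa4 probe set changed by 1.71 and did not pass. It read 4.06, 4.05 and 6.71 in the control arrays and 6.82, 5.33 and 7.81 after both siRNAs. Hspa1b changed by -1.19 ± 0.53 (adjusted p = 0.177), at least 1.75-fold lower from the floor, with no overlap between the groups. Hspa5 changed by -1.33 ± 0.63 (adjusted p = 0.192), its replicate 3 of the double knockdown lying inside the control range. Its other tested probe sets changed by -0.75 ± 0.27 (adjusted p = 0.109) and -0.03 ± 0.23 (adjusted p = 0.953).

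The HSP90 genes differed little on their brightest probe sets. Hsp90aa1, the inducible cytosolic HSP90, read 15.27, 15.28 and 15.17 in the control arrays, 15.32, 15.44 and 15.44 after Dcp1a siRNA, 15.04, 15.22 and 14.49 after Dcp2 siRNA and 15.16, 14.87 and 15.29 after both, and the double knockdown overlapped control (-0.13 ± 0.20, limma adjusted p = 0.690). Hsp90b1, the endoplasmic reticulum form also called GRP94, read 12.80, 12.99 and 12.53 in the control arrays, 12.23, 12.70 and 12.20 after Dcp1a siRNA, 12.74, 12.96 and 12.34 after Dcp2 siRNA and 12.37, 12.31 and 12.12 after both. All its double knockdown arrays were under every control array, and the change was -0.51 ± 0.22 (adjusted p = 0.163).

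Among the J-domain genes that act with cytosolic and mitochondrial HSP70, Dnaja1 and Dnaja2 changed by -0.61 ± 0.48 (limma adjusted p = 0.409) and -0.84 ± 0.33 (adjusted p = 0.133) in the double knockdown against control. Dnaja3, the mitochondrial member, and Dnaja4 changed by 0.22 ± 0.34 (adjusted p = 0.678) and 0.10 ± 0.19 (adjusted p = 0.748). In the Dnajb family Dnajb1, the canonical partner of HSP70 under stress, changed by 0.06 ± 0.17 (adjusted p = 0.818), Dnajb4 by -0.17 ± 0.18 (adjusted p = 0.555) and Dnajb6, which limits polyglutamine aggregation, by -0.75 ± 0.65 (adjusted p = 0.450). None of these 7 passed.

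Dnajc2, the ribosome-bound partner of Hspa14, read 10.59, 11.39 and 11.09 in the control arrays, 10.72, 11.30 and 10.83 after Dcp1a siRNA, 10.04, 11.69 and 9.56 after Dcp2 siRNA and 9.89, 9.40 and 10.25 after both. The double knockdown arrays lay under all control arrays and the change was -1.18 ± 0.47 (limma adjusted p = 0.142). The gene's other tested probe sets had changes of the opposite sign, 1.62 ± 0.84 (adjusted p = 0.226) and 0.82 ± 0.25 (adjusted p = 0.0672). Dnajc5, a secretory vesicle chaperone, read 8.30, 6.94 and 7.29 in the control arrays, 7.97, 7.93 and 8.47 after Dcp1a siRNA, 7.67, 7.86 and 8.01 after Dcp2 siRNA and 8.50, 8.48 and 8.34 after both. It lay above all control arrays by 0.93 ± 0.31 (adjusted p = 0.0848) and passed without control replicate 1. Dnajc3, an inhibitor of the kinase PERK in the unfolded protein response, changed by -0.32 ± 0.35 (adjusted p = 0.549), and Dnajc7 by 0.03 ± 0.35 (adjusted p = 0.964). Dnajc8, a spliceosome protein, changed by -0.07 ± 0.14 (adjusted p = 0.771), Dnajc9, a histone chaperone, by 0.20 ± 0.39 (adjusted p = 0.756), and Dnajc21 by -0.13 ± 0.17 (adjusted p = 0.622). Hspb11, a ciliary transport subunit despite its symbol, changed by 0.08 ± 0.22 (adjusted p = 0.829). The changes of all 50 genes ran from -1.33 to 2.47.

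Of the genes with several probe sets past the filter, 29 in all, 20 had changes of one sign in the double knockdown against control and 9 had mixed signs. The same was not counted over all genes tested, so these counts have no background beside them. A dimmer Hsp90aa1 probe set differed from the brightest. It read 9.01, 8.69 and 11.50 in the control arrays, 8.71, 8.49 and 8.68 after Dcp1a siRNA, 8.96, 9.07 and 8.75 after Dcp2 siRNA and 12.19, 12.05 and 12.36 after both. Control replicate 3 again stood apart from the other controls, and the change was 2.47 ± 0.56 (limma adjusted p = 0.0204). A second Dnajb1 probe set read 3.94, 3.41 and 4.37 in the control arrays and 5.33, 5.24 and 5.22 after both siRNAs, at least 1.20-fold higher from the floor (fitted change 1.35 ± 0.28, adjusted p = 0.0141). That probe set was over 5 log2 units only in the double knockdown arrays and entered the test through them, so its call gives no support. A second Dnajb4 probe set was lower, by -0.88 ± 0.22 (adjusted p = 0.0292). Which transcripts the probe sets of a gene cover was not tested.

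**Figure D5:**
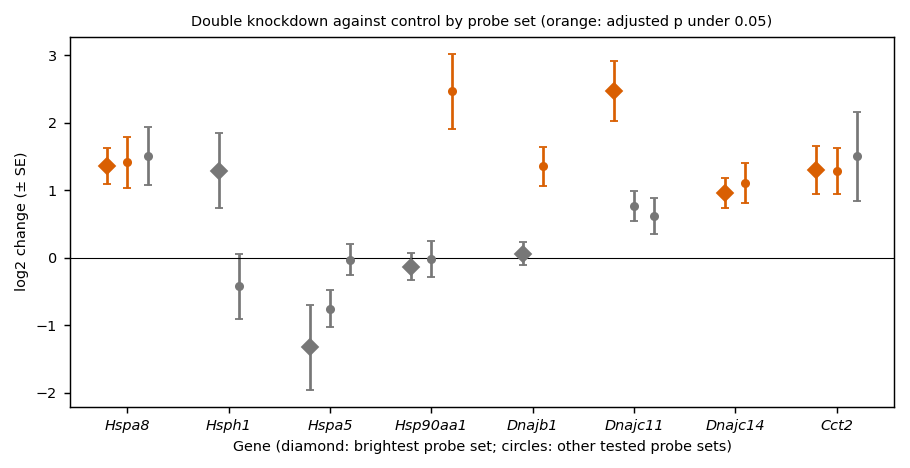
Log2 change in the double knockdown against control for every tested probe set of 8 genes, the brightest as a diamond and others as circles, with standard errors of the fit. The 3 Hspa8 probe sets lie between 1.36 and 1.51, while those of Hsp90aa1 lie at -0.13, -0.02 and 2.47.

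Partner genes of these chaperones were read from a list of 50 cochaperones, prefoldin subunits and endoplasmic reticulum folding factors, of which 45 were on the array with a single symbol and 36 were tested. In each single knockdown 0 passed as higher and 0 as lower (limma); at an unadjusted p under 0.05 the counts were 0 higher and 2 lower for Dcp1a, beside 215 and 128 of 6996 genes, and 1 higher and 5 lower for Dcp2, beside 248 and 486. In the double knockdown 4 were higher than control and 1 lower, where 6.78% of all genes tested were higher and 1.64% lower, and the median change was 0.01. Txndc9, a chaperonin regulator of the phosducin-like family, read 7.86, 7.32 and 9.64 in the control arrays and 10.73, 10.77 and 10.89 after both siRNAs, with the single knockdowns between 7.43 and 7.79. It rose 5.74-fold (2.52 ± 0.45, adjusted p = 0.00616), and control replicate 3 was once more the highest control array.

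Pfdn6, a subunit of prefoldin, which hands actin and tubulin to the chaperonin, read 4.93, 5.04 and 5.47 in the control arrays, 4.63, 4.68 and 4.55 after Dcp1a siRNA and 6.54, 6.82 and 6.39 after both. Its 3 Dcp2 siRNA arrays hold the same deposited intensity, 5 log2 units, so they add no spread to the error of this gene. Pfdn6 rose 2.71-fold against control (1.44 ± 0.18, limma adjusted p = 0.000931), from control values near the floor. Outside the double knockdown only control replicates 2 and 3 were over 5 log2 units. The probe set met the filter only with the double knockdown arrays, so its calls, also that of its departure below, give no support. Calr, the calcium-binding chaperone calreticulin, rose 3.35-fold (1.74 ± 0.43, adjusted p = 0.0294), and Sil1, a nucleotide exchange factor of BiP, rose 1.80-fold (0.84 ± 0.19, adjusted p = 0.0207). The one that fell was Bag4, a nucleotide exchange factor of HSP70, which read 10.21, 9.83 and 10.14 in the control arrays and 8.94, 8.01 and 8.58 after both siRNAs (-1.55 ± 0.30, adjusted p = 0.00994). Its Dcp2 siRNA arrays read 8.94, 9.24 and 8.30, and the change against the Dcp2 knockdown was -0.32 ± 0.30 (adjusted p = 0.753). Departures from additivity passed for Txndc9 (3.89 ± 0.63, adjusted p = 0.00722) and Pfdn6 (2.11 ± 0.26, adjusted p = 0.00167). The heat shock factor gene Hsf2 stayed at or near the array's minimum on all 12 arrays. Hsf1, also on the list, had no probe set under its single symbol and was not read.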

How the data were processed

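The labels' protocols state that RNA of 30 pooled eggs per sample was amplified, labelled with biotin by a small-sample protocol and hybridised to Affymetrix mouse arrays. The authors deposited 1 linear intensity per probe set and array, made with GCRMA per the submitters' processing notes, which name no version. This method corrects background by probe sequence and normalizes between arrays; 55.6% of values were at or under 5 units, so changes of dim genes depend on that floor. No read depth applies, and the number of arrays limits precision.

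Intensities were taken to log2. After 64 control probe sets were left out, 11593 of 45037 were tested, those over 5 log2 units (32 intensity units) on 3 or more of the 12 arrays. Symbols came from the platform annotation (34945 probe sets with 1 symbol, 932 with several, 9160 with none), and all 78 genes matched RefSeq by Entrez number. Groups were compared with limma 3.58.1 in R 4.3.3 (lmFit, eBayes without trend) on the 12 arrays together (8 residual degrees of freedom, 2.97 prior), two-sided, and p-values were adjusted by Benjamini-Hochberg within each comparison over 11593 probe sets. Errors of changes are standard errors of the fit, and a fold against a group at or under the floor is a bound counted from 5 on the log2 scale. The code was tested on simulated data.

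The genes, the partner list and the tests were chosen with earlier results of these data known. Named are all genes past the threshold, a fixed set of well-known family members, the 5 with the highest control mean, and, in a comparison with fewer than 2 calls, the 2 genes of smallest p. Alternatives covered the filter, the floor, scaling, the variance model, a replicate block, the choice of probe set and left-out arrays, 1 at a time and as a pair (control replicate 1 and Dcp2 replicate 2) chosen from earlier correlations of these data. Same-numbered replicates of different groups did not all deviate together (r from -0.685 to 0.394 over 18 pairs, 9 above 0.1), so the numbers were not used to pair samples.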

Additional observations from a re-analysis of the deposited data

Results flagged for a closer look

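Genes are listed here where the change by both siRNAs differed from the sum of the single changes by a test of that difference, or where a probe set other than the brightest passed while the brightest did not. The departures from additivity were 4.06 for Dnajc11, 2.11 for Cct2, 1.64 for Tcp1 and 1.56 for Hspa8 on the log2 scale (limma adjusted p = 0.00553, 0.0438, 0.0257 and 0.0397). Among the partner genes they were 3.89 for Txndc9 and 2.11 for Pfdn6 (limma adjusted p = 0.00722 and 0.00167), and Pfdn6 was at or under the floor of 5 in both single knockdowns. Pfdn6 met the filter only with the double knockdown arrays, so its call gives no support. Outside the brightest probe sets, one of Hsp90aa1 changed by 2.47 in the double knockdown against control (limma adjusted p = 0.0204) and one of Dnajb1 by 1.35 (adjusted p = 0.0141), the latter with control values under the floor. The Dnajb1 probe set entered the test only through the double knockdown arrays, so its call gives no support. One of Dnajb4 changed the other way, by -0.88 (adjusted p = 0.0292).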

How the results depend on the processing

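Each called gene kept its direction under every alternative run (372 of 524 gene values also stayed past the threshold, 152 did not, 0 reversed). Direction could not change where a setting altered only the filter, the error model or arrays outside the comparison. Counts are of the 50 tested genes, by limma, or of 78 without a filter, 41 with the stricter filter and 51 after quantile normalization. With no filter on dim probe sets 0 were higher in the double knockdown against control, 0 departed from additivity, and 2 and 3 were higher against the Dcp1a and Dcp2 knockdowns; the medians against the Dcp2 knockdown and of Dcp2 against control were 0.070 and -0.032. Against control the double knockdown had 3 higher with the stricter filter, 3 with trend and robust eBayes and 0 with the variance of the compared arrays, which gave 4 lower against the Dcp1a knockdown. The replicate block, which the numbers do not support as a pairing, gave 3 higher against control, 4 against the Dcp1a knockdown and 1 departure. After median centring 4 were higher against the Dcp2 knockdown and 1 lower against control, the medians being -0.10 for Dcp1a, -0.12 for Dcp2 and -0.035 for double against Dcp2; after quantile normalization 1 was lower against control, with medians of -0.13 for Dcp2 and 0.017 for double against Dcp2. Cyclic loess gave medians of -0.15 for Dcp2 and 0.10 for double against Dcp1a. Median centring moved the median of all probe sets in Dcp2 against control from -0.11 to 0.07 and in double against Dcp2 from 0.06 to -0.15. With control replicate 1 and Dcp2 replicate 2 both out, 3 were higher and 1 lower for Dcp1a, 3 and 9 for Dcp2, 8 and 4 for the double against control, and 4 were lower against the Dcp1a knockdown. The members' medians in that setting were 0.13 for Dcp1a, -0.43 for Dcp2, -0.060 for the double, 0.34 for double against Dcp2 and 0.26 for the departure. With 1 array out the counts ran from 0 to 3 higher and 0 to 1 lower for Dcp1a, 2 to 7 and 0 to 1 for the double, 3 to 7 and 0 to 2 against Dcp1a, 4 to 9 higher against Dcp2 and 1 to 5 departures, and the medians from -0.015 to 0.13 for Dcp1a, -0.35 to -0.21 for Dcp2, -0.060 to 0.071 for the double, -0.07 to 0.07 against Dcp1a, 0.11 to 0.34 against Dcp2 and 0.04 to 0.19 for the departure. Over all probe sets the double knockdown had 458 higher and 69 lower than control with no filter, and 226 and 51 with the variance of the compared arrays, against 768 and 243. Those lower than control numbered 364 after median centring and 359 after quantile normalization. The cause of these shifts was not tested. With 3 arrays a group, no change was shown to be absent, and values near the floor have no order.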
